A study of Mus musculus with 6 samples.

Results

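Nuclear hormone receptors were followed in the hippocampus of wild-type mice and of mice labelled as knockouts of another ligand-activated transcription factor, the aryl hydrocarbon receptor (Ahr). The 41 members were listed by name as genes of the nuclear receptor superfamily, with the Nr4a and Nr1d genes left out. No measured value served as a criterion, but the list was chosen with earlier results of these data known. A member was taken as measured where the array annotation paired a probe set with its symbol alone, and the brightest such probe set stood for the gene. That gave 39 measured members among 22180 genes. Nr1h2 and Nr2e3 had no such probe set and were not analysed here. Members were called expressed where their log2 signal lay above the median of all genes tested on each of the 6 arrays, a rule that 19 of the 39 members and 10551 of the 22180 genes met. Another 3 members (Rarg, Rxrg and Pparg) passed it on 1 array each, and 17 passed it on none.

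Nuclear receptors are transcription factors that most often carry a DNA-binding domain of zinc fingers and a pocket for a small, fat-soluble ligand. The steroid receptors wait in a complex with the Hsp90 chaperone and bind DNA as pairs of the same protein, whereas the thyroid hormone, retinoic acid, PPAR and LXR receptors pair with a retinoid X receptor and swap corepressors for coactivators when ligand arrives. The orphan receptors have no settled hormone. In the hippocampus the family is known above all for its corticosteroid pair, the mineralocorticoid receptor (Nr3c2) and the glucocorticoid receptor (Nr3c1), which read stress hormones in the same pyramidal and granule neurons. Ahr belongs to the separate bHLH-PAS family and binds DNA with ARNT.

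Hippocampi came from 3 Ahr-KO mice and 3 wild-type mice, with 1 array per mouse, and the labels describe the RNA replicates as independent. The labels give the genotype as Ahr-KO or wildtype and name no strain, allele, age, sex or treatment, and the Ahr-KO genotype is not described as restricted to a cell type. The series title concerns the bearing of Ahr on memory, neurogenesis, granule cell dendrites and synapses. The deposited values were log2 signals made by RMA, in which a difference of 1 is a doubling of signal. All differences below are Ahr-KO minus wild type on that scale, with the standard error (SE) and 95% interval of limma, and n was 3 arrays per genotype throughout.

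Ahr itself, the targeted gene, read 6.62, 6.91 and 6.74 in the Ahr-KO arrays and 7.68, 7.50 and 7.44 in the wild-type arrays. The genotypes did not overlap, and the difference was -0.78 ± 0.10 (SE; -1.02 to -0.55), with an unadjusted p of 4.33e-05 and an adjusted p of 0.320 in limma. Whether its probes lie in the deleted part is not given in the sources used here. Of 24 listed markers of hippocampal neurons, 23 were measured and 22 lay above the array median on all 6 arrays. Array medians spanned 6.488 to 6.515. Ahr-KO array 1 and wild-type array 2 stood apart by choroid plexus transcripts: Ttr, the thyroxine carrier of that tissue, read 13.15 and 12.64 there and 8.64 to 9.06 on the other 4 arrays. Kl read 9.65 and 9.27 there against 7.84 to 8.12 elsewhere, and Folr1 7.01 and 6.20 against 5.44 to 5.72. One such array lies in each genotype. Ahr-KO array 1 was also lowest for the means of 15 oligodendrocyte markers (9.29, against 9.64 to 9.74 on the other 5 arrays) and 15 microglia markers (7.88, where the highest array was at 8.21). No scan dates or batches were used here.

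None of the 39 nuclear receptors passed an adjusted p of 0.05 in limma, and neither did any of the 22180 genes (0.0%); 2 genes, neither of them a member, did when the variance was modelled with an intensity trend. The lowest adjusted p of a member was 0.797. At an unadjusted p under 0.05, 1 of 39 members was higher in Ahr-KO, the mineralocorticoid receptor Nr3c2 (2.56%, against 3.53% of all genes), and 0 were lower (against 2.65%). Genotypes did not overlap for 3 members: Rorb was higher in Ahr-KO on every array (1 of 39, 2.56%, against 6.18% of all genes), and Rora and Nr1i3 were lower (2 of 39, 5.13%, against 5.75%). Among the 19 expressed members the counts were 1 higher and 0 lower at an unadjusted p under 0.05, against 2.13% and 2.57% of the expressed genes, and 1 higher and 1 lower without overlap (5.26% each), against 5.35% and 7.62%. These shares lie near the background, so the counts are not a result about the receptors as a group.

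The spread of the members' differences was close to that of all genes. The 39 differences had a median of 0.01 and quartiles of -0.07 and 0.06, beside a median of 0.00 and quartiles of -0.07 and 0.08 over all genes, and ran from -0.20 (Nr0b1) to 0.28 (Nr3c2). Ahr-KO means were higher for 20 members and lower for 19. For the 19 expressed members the median was 0.02, beside -0.02 for the expressed genes, with 11 means higher and 8 lower. The remaining 20 members had a median of -0.06, with 9 means higher and 11 lower. No member differed by more than 0.32 (log2) in either direction, while 469 of the 22180 genes did.

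The arrays bound how large a member's difference in signal could be, which need not be its difference in RNA. For the 20 members that were not expressed, down to a mean level of 3.85, the signal may be background. Their intervals may then not bound RNA at all. SEs ran from 0.07 to 0.17. The 95% interval lay within 1.5-fold in either direction for 39 of 39 members, beside 95.8% of all genes, and within 0.32 (log2) in either direction for 23 of 39 (59.0%, beside 58.3%). An interval that spans 0 does not show that a receptor had equal RNA in both genotypes. In whole tissue, fewer cells of a type and less RNA per cell cannot be told apart.

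**Figure D1:**
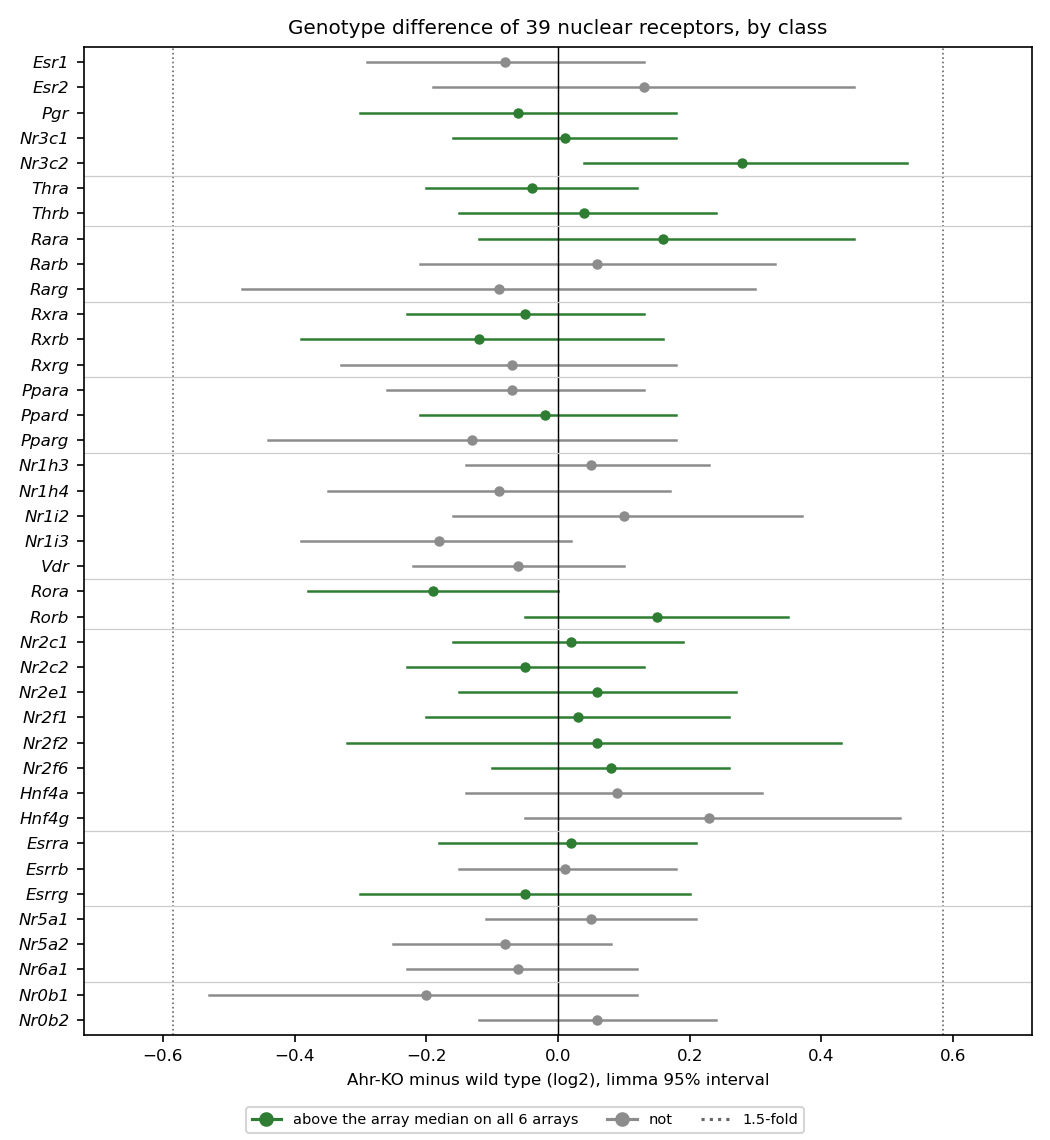
Difference between genotypes (Ahr-KO minus wild type, log2, horizontal axis) for the 39 measured nuclear receptors, grouped by class with thin lines between classes; points are estimates, bars are limma's 95% intervals from 3 arrays per genotype, green marks the 19 members above the array median on all 6 arrays and dotted lines mark 1.5-fold. All 39 intervals lie inside the dotted lines, and the interval of Nr3c2 (0.04 to 0.53) starts above 0.

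The mineralocorticoid receptor Nr3c2, which binds corticosterone tightly at resting levels of the hormone, read 10.10, 9.87 and 9.95 in the Ahr-KO arrays and 9.57, 9.89 and 9.61 in the wild-type arrays. The 3 Ahr-KO values were high, most of all on array 1, which stood apart above, and wild-type arrays 1 and 3 were low, but wild-type array 2 lay just above Ahr-KO array 2, so the genotypes overlapped. Means were 9.97 ± 0.11 and 9.69 ± 0.18 (SD), a difference of 0.28 ± 0.11 (SE; 0.04 to 0.53) or 1.22-fold, with an unadjusted p of 0.0279 and an adjusted p of 0.797. A second probe set for the gene had a mean of 6.02, below the array medians, and a difference of 0.06. Its values were 6.04, 6.08 and 6.03 in Ahr-KO and 5.87, 6.09 and 6.02 in wild type.

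Marker lists of cell types and regions moved with Nr3c2 on some arrays. For hippocampal neurons the mean of the 23 measured markers was 9.10, 9.10 and 9.18 in Ahr-KO and 8.96, 9.16 and 9.02 in wild type, so wild-type array 2 was the wild-type array highest in both, while Ahr-KO array 1, highest for Nr3c2, was not the highest for the markers. The mean of 11 measured neocortex and striatum markers ran in the opposite order to Nr3c2 over the arrays, at 7.32, 7.66 and 7.40 in Ahr-KO and 7.74, 7.40 and 7.67 in wild type, with 7 of the 11 above the array median on every array. With the neuron mean as a covariate the Nr3c2 difference was 0.18 (unadjusted p of 0.136), and with the neocortex and striatum mean it was 0.17 (unadjusted p of 0.0777). Without Ahr-KO array 1 it was 0.22 (unadjusted p of 0.0934). Both covariates were chosen after seeing the data, and the part of tissue composition in the difference was not tested beyond these fits.

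The glucocorticoid receptor Nr3c1, the lower-affinity partner that responds as the hormone climbs, read 9.56, 9.65 and 9.59 in Ahr-KO and 9.52, 9.58 and 9.67 in wild type. The groups overlapped throughout, with a difference of 0.01 ± 0.08 (SE; -0.16 to 0.18). The progesterone receptor Pgr was the expressed member nearest the array median, with values of 6.99, 6.87 and 6.77 against 7.04, 6.74 and 7.04, and its difference was -0.06 ± 0.11 (SE; -0.30 to 0.18). The estrogen receptors Esr1 and Esr2 lay below the median on all arrays, at 6.09 to 6.38 and 5.54 to 6.13, with differences of -0.08 and 0.13. For this class of 5 the differences therefore spanned both signs, with 3 means higher and 2 lower.

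**Figure D2:**
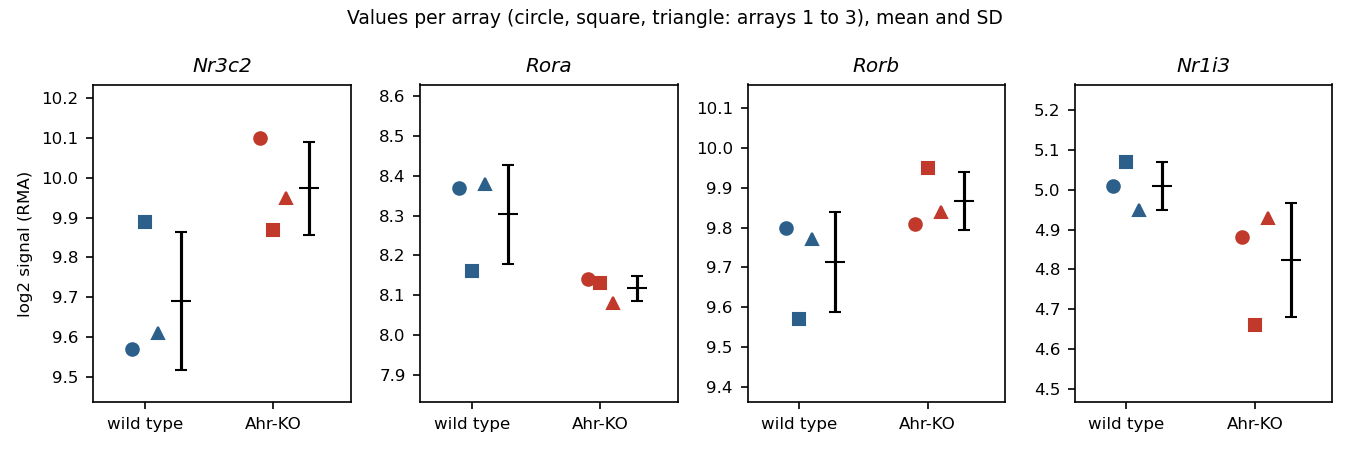
Log2 signal (RMA) of Nr3c2, Rora, Rorb and Nr1i3 on each array, wild type in blue and Ahr-KO in red, with marker shapes for arrays 1 to 3 and black bars for the mean and SD of 3 arrays; each panel has its own vertical axis. Nr3c2 overlaps through wild-type array 2, while the nearest values of the genotypes are 8.14 and 8.16 for Rora, 9.81 and 9.80 for Rorb, and 4.93 and 4.95 for Nr1i3.

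Of the ROR receptors, monomer-binding activators of clock and cell identity genes, Rora read 8.14, 8.13 and 8.08 in Ahr-KO and 8.37, 8.16 and 8.38 in wild type. The Ahr-KO values were tight and low, and wild-type array 2 sat close to them. The difference was -0.19 ± 0.08 (SE; -0.38 to 0.00), or 1.14-fold, with an unadjusted p of 0.0546 and an adjusted p of 0.809. Rorb, a receptor of sensory cortex and of rhythm-related nuclei, read 9.81, 9.95 and 9.84 in Ahr-KO and 9.80, 9.57 and 9.77 in wild type. Here wild-type array 2 was the low one, and the difference was 0.15 ± 0.09 (SE; -0.05 to 0.35), with an unadjusted p of 0.119 and an adjusted p of 0.826. The 2 receptors differed in sign, and neither passed the test.

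Both genes are also used as markers of regions that border the hippocampus. The 16 measured thalamus and habenula markers averaged 6.96, 7.07 and 7.04 in Ahr-KO and 7.03, 6.92 and 7.05 in wild type, and 10 of them were above the array median on every array. Rorb was lowest and this mean was lowest on wild-type array 2. With the neuron mean as a covariate in limma, Rora differed by -0.11 (unadjusted p of 0.242) and Rorb by 0.23 (unadjusted p of 0.0344). With the neocortex and striatum mean, Rora differed by -0.14 (unadjusted p of 0.16) and Rorb by 0.23 (unadjusted p of 0.0177). The part of neighbouring tissue in either difference was not tested further.

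The last of the members without overlap was Nr1i3, the constitutive androstane receptor, a liver sensor of drugs and foreign chemicals. It lay below the array median on all arrays, at 4.88, 4.66 and 4.93 in Ahr-KO and 5.01, 5.07 and 4.95 in wild type, so the genotypes were separated by the gap between 4.93 and 4.95. The difference was -0.18 ± 0.09 (SE; -0.39 to 0.02), with an unadjusted p of 0.0768 and an adjusted p of 0.817. No detection calls were used here, so a level this low cannot be told from background.

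Promoter sequence was read for these members because the receptor targeted in Ahr-KO binds a short DNA core, GCGTG. Each window holds the 250 bases before a RefSeq start site (GRCm38.p6), written 5′ to 3′ on the gene's strand in lower case, with GCGTG or its reverse complement CACGC in capitals. The Nr3c2 window at chr8:76902080-76902329 (plus strand) holds the core with its first base at -213 from the start site. The Rora window at chr9:68653536-68653785 (plus strand) holds the reverse complement at -167, and the first Rorb window at chr19:19111197-19111446 (minus strand) holds it at -107. The second Rorb window at chr19:19001118-19001367 (minus strand) and the Nr1i3 window at chr1:171213720-171213969 (plus strand) hold none.
Nr3c2: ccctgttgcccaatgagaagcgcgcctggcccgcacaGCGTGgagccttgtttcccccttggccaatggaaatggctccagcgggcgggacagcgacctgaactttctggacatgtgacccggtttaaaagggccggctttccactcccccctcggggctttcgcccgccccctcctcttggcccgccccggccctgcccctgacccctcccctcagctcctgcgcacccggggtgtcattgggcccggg
Rora: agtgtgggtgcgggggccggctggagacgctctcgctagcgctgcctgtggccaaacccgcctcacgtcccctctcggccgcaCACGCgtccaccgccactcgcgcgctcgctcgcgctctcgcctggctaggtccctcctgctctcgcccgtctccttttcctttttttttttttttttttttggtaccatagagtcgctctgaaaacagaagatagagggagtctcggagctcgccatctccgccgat
Rorb (window 1): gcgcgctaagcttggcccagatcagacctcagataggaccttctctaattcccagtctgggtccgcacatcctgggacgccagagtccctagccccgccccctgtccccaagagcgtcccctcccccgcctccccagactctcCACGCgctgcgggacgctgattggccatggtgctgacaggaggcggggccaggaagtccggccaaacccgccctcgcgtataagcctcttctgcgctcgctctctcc
Rorb (window 2): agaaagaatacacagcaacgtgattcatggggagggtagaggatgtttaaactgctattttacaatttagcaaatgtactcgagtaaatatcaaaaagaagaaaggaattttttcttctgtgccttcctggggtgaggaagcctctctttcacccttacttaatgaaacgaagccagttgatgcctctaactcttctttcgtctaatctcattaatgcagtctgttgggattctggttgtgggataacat
Nr1i3: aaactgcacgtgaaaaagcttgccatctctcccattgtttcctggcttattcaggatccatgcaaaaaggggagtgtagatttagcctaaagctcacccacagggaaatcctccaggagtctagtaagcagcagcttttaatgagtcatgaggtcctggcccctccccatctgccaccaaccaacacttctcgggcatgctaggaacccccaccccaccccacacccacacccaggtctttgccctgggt
A match of these letters is a description and not a binding site.

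The core was common in the family's promoters and in others. Of the 41 listed members 37 had a RefSeq promoter entry, with 58 windows in all, and Nr3c1, Nr5a1, Hnf4g and Thra had none. On either strand GCGTG was found in 22 of 58 member windows (37.9%), beside 28.2% of the 32851 windows of all genes. By gene, 20 of 37 members (54.1%) had it in some window, beside 30.9% of 27025 genes. Member windows were also richer in G and C, with a median of 58.0% beside 52.4%, and the part of base composition in these shares was not tested. The half-site of the receptors themselves, AGGTCA, was found in 10 of 58 member windows (17.2%), beside 14.0% of all windows, and by gene in 9 of 37 members (24.3%), beside 15.8% of all genes. Members had more windows per gene (58 for 37 members, beside 32851 for 27025 genes). That favours them in both shares counted by gene, and its part was not tested. The 20 measured members with GCGTG had differences from -0.20 to 0.28 with a median of -0.03, and 9 means were higher in Ahr-KO. The 15 without it ran from -0.18 to 0.13 with a median of 0.01, and 8 means were higher.

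The thyroid hormone receptors, which repress their targets until triiodothyronine binds, were both expressed. Thra read 9.75, 9.80 and 9.72 in Ahr-KO and 9.81, 9.84 and 9.75 in wild type, and its difference was -0.04 ± 0.07 (SE; -0.20 to 0.12). Thrb ranged from 8.95 to 9.15, with a difference of 0.04 ± 0.09 (SE; -0.15 to 0.24). The groups overlapped for both genes.

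Among the retinoid receptors, Rara, the retinoic acid receptor also found in dendrites, read 7.44, 7.69 and 7.54 in Ahr-KO and 7.40, 7.62 and 7.16 in wild type, with a difference of 0.16 ± 0.12 (SE; -0.12 to 0.45). Rarb and Rarg differed by 0.06 and -0.09, and neither was above the median on all arrays. Rarg passed it only on wild-type array 1, at 6.85 against 6.09 to 6.38 on the other 5 arrays. The retinoid X receptors, the shared partners of many members, had lower Ahr-KO means in 3 of 3 genes, at -0.05 for Rxra, -0.12 for Rxrb and -0.07 for Rxrg. All 3 overlapped, the lowest unadjusted p among them was 0.352, and the sign of a mean is not a call. Rxrg was the gene just outside the expressed group, with values of 6.47, 6.49 and 6.30 against 6.31, 6.48 and 6.70, and it lay 0.20 below the median on its lowest array, where Pgr, just inside, lay 0.25 above on its own lowest.

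The lipid and xenobiotic sensors were mostly dim. Of the PPARs, which switch on fatty acid oxidation and storage, only Ppard was expressed, at 7.70 to 7.93, with a difference of -0.02 ± 0.09 (SE; -0.21 to 0.18). Ppara (5.68 to 5.96) and Pparg (6.05 to 6.52) differed by -0.07 and -0.13. None of the 5 measured sterol, bile acid, xenobiotic and vitamin D receptors was expressed. The oxysterol receptor Nr1h3 differed by 0.05, the bile acid receptor Nr1h4 by -0.09, the pregnane X receptor Nr1i2 by 0.10 and the vitamin D receptor Vdr by -0.06, each with overlap between the genotypes.

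**Figure D3:**
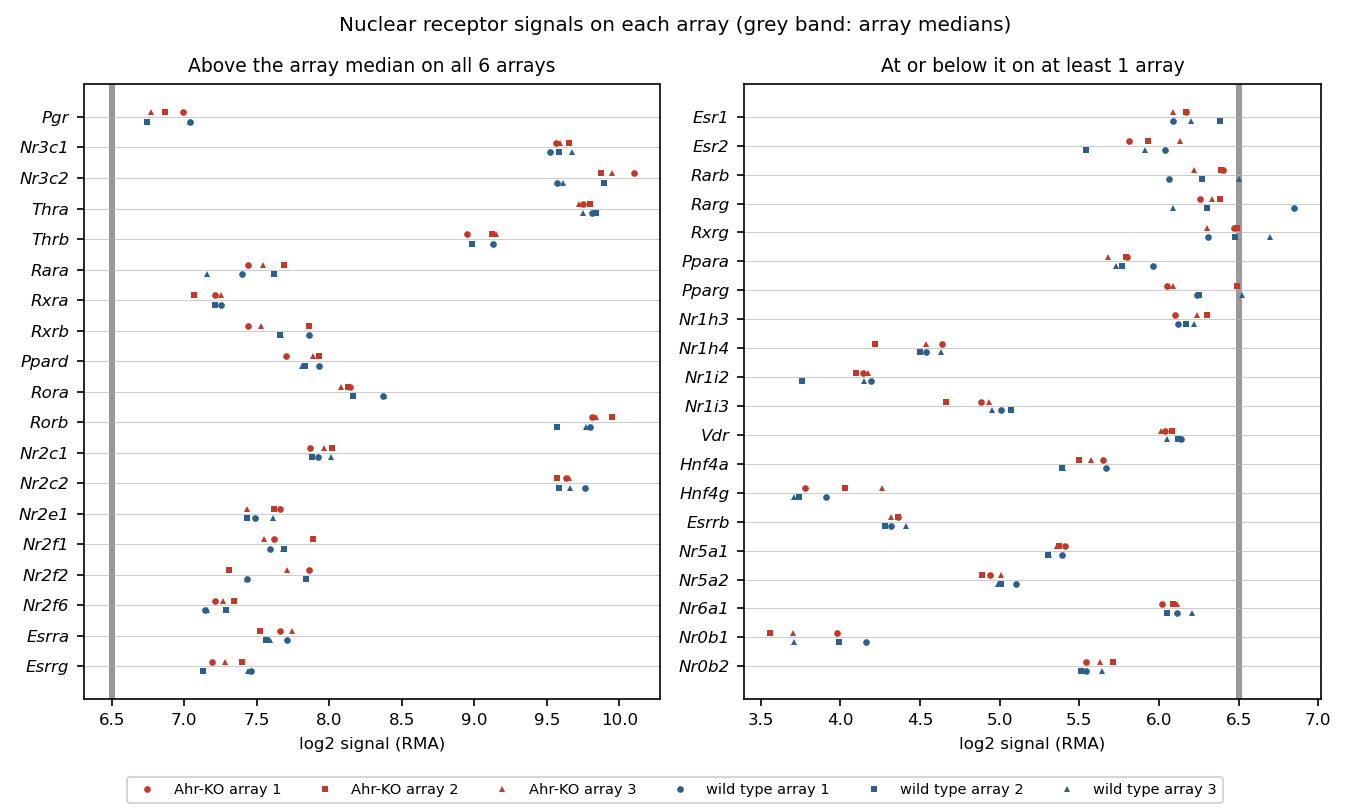
Log2 signal (RMA, horizontal axis) of 39 nuclear receptors on each of the 6 arrays, Ahr-KO in red and wild type in blue with shapes for arrays 1 to 3; the left panel holds the 19 members above the array median on all arrays and the right panel the other 20, with the grey line at the median of genes tested (6.488 to 6.515). Red and blue points intermix in most rows, and the values of different genes depend on their probes and are not comparable.

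The NR2 orphan receptors held 6 of the 19 expressed members. Nr2c1 and Nr2c2, the testicular receptors, differed by 0.02 and -0.05, and Nr2e1, which keeps neural stem cells proliferating and is a classical mark of the dentate niche, by 0.06 ± 0.09 (SE; -0.15 to 0.27). The COUP factors Nr2f1 and Nr2f2, which pattern the forebrain, differed by 0.03 and 0.06, and their relative Nr2f6 by 0.08. The dim Hnf4a and Hnf4g, regulators of liver and gut genes, differed by 0.09 and 0.23, with an unadjusted p of 0.0973 for Hnf4g. Means were higher in Ahr-KO for 7 of these 8 genes, and none passed the test.

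Nr2f2 was highest on the arrays with choroid plexus transcripts. It read 7.86, 7.31 and 7.71 in Ahr-KO and 7.43, 7.84 and 7.43 in wild type, so its highest values fell on Ahr-KO array 1 and wild-type array 2. The mean of 17 measured choroid plexus markers was 7.20 and 6.65 on those arrays and 5.72 to 5.82 on the other 4, and 3 of the 17 were above the array median everywhere. Ahr-KO array 3 was also high for Nr2f2, with a low choroid mean (5.72) and a low neocortex and striatum mean (7.40). With the choroid mean as a covariate the difference was 0.01, and without both choroid-high arrays 0.08. It turned to -0.16 (unadjusted p of 0.0884) with the neocortex and striatum mean as a covariate and to -0.10 with the neuron mean. The source of the Nr2f2 signal was not tested.

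**Figure D4:**
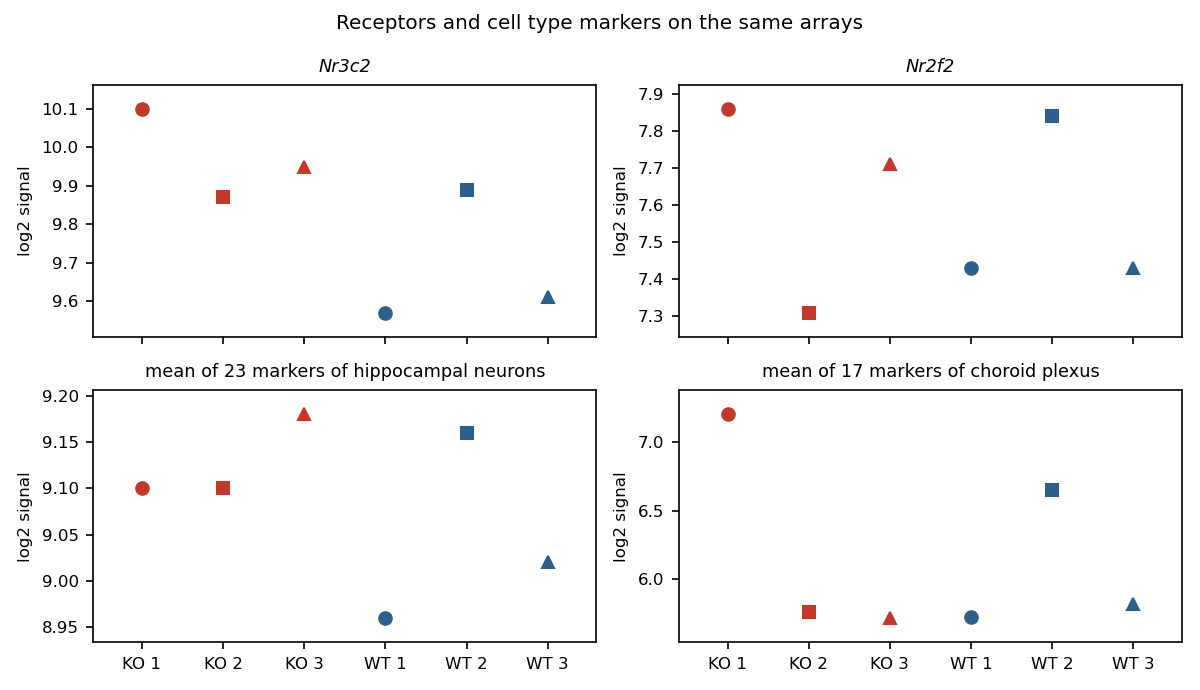
Log2 signal on each array (Ahr-KO in red, wild type in blue) of Nr3c2 above the mean of 23 hippocampal neuron markers, and of Nr2f2 above the mean of 17 choroid plexus markers; each panel has its own vertical axis. Nr3c2 and the neuron mean are both low on wild-type arrays 1 and 3, and Nr2f2 and the choroid mean are both highest on Ahr-KO array 1 and wild-type array 2.

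The estrogen-related receptors, orphan activators of mitochondrial genes, differed by 0.02 (Esrra, 7.52 to 7.74), 0.01 (Esrrb, 4.28 to 4.41) and -0.05 (Esrrg, 7.13 to 7.46). Nr5a1, Nr5a2 and Nr6a1, known from gonad, liver and germ cells, were dim and differed by 0.05, -0.08 and -0.06. The receptors without a DNA-binding domain, which act by blocking others, were also dim: Nr0b1 differed by -0.20 ± 0.14 (SE; -0.53 to 0.12) and Nr0b2 by 0.06. Genotypes overlapped in all 8 genes.

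Of the genes listed as receptor partners, none was under an unadjusted p of 0.05 in limma, and the listed corepressors without overlap between genotypes went both ways. All 24 coactivator and mediator genes were expressed, with 10 means higher and 14 lower and 0 at an unadjusted p under 0.05. Those with the lowest p were Pprc1 (0.14), Carm1, an arginine methyltransferase (0.11), and Psmc5 (-0.14). Carm1 was higher and Ncoa3 (-0.05) lower without overlap (1 of 24 each, 4.17%, against 6.18% and 5.75% of all genes). Of 17 genes listed as corepressors 15 were measured, 14 of them expressed, with 6 means higher and 9 lower and 0 at an unadjusted p under 0.05. Without overlap 4 of the 15 were higher (26.7%, against 6.18% of all genes and 5.35% of the expressed genes): Bend3 (0.17), Zfp653 (0.14), Tsc22d4 (0.13) and Sin3a (0.11). The deacetylase Hdac3 (-0.10) and the demethylase Kdm1a (-0.08) were lower without overlap (2 of 15, 13.3%, against 5.75% and 7.62%). For the corepressors without overlap the unadjusted p in limma ran from 0.0506 (Bend3) to 0.288 (Kdm1a). The mean of the 15 overlapped, at 8.38 to 8.42 in Ahr-KO and 8.40 to 8.41 in wild type. Of 12 steroid receptor chaperones 9 were measured, 3 higher and 6 lower, with 0 at an unadjusted p under 0.05 and a median of -0.10. The p23 cochaperone Ptges3 differed by 0.29 ± 0.16 (SE), Bag1 by -0.18 and Hsp90aa1 by -0.12. Ptges3 lay below the median on all arrays, and its lowest value was 3.87 on wild-type array 1.

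Genes that make, move or clear the hormones were measured for 22 of 27. Means were higher for 16 and lower for 6, and 1 was higher at an unadjusted p under 0.05 (4.55%, against 3.53% of all genes): Abcb1a, an efflux pump of the blood-brain barrier that carries some steroids, at 0.19 ± 0.08 (SE; adjusted p of 0.803). Slc16a10, a thyroid hormone carrier, and Hsd3b2, a steroid-making enzyme, differed by 0.17 and 0.26, and both lay below the median on all arrays. Besides Abcb1a, the deiodinase Dio1 was higher without overlap (0.13; 2 of 22, 9.09%, against 6.18%). Abcb1a is also made by vessels and is itself 1 of the 20 endothelial and mural markers. Of these 20, 17 had higher Ahr-KO means, with array scores of 7.78 to 7.85 in Ahr-KO and 7.68 to 7.77 in wild type. At an unadjusted p under 0.05 in limma, 4 of the 20 were higher, Abcb1a among them, and 0 lower (against 3.53% and 2.65% of all genes). The part of vessels in the difference was not tested.

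Target genes of the receptors were read from lists by ligand, and no gene in them passed an adjusted p of 0.05. At an unadjusted p under 0.05 the shares over all genes were 3.53% higher and 2.65% lower, without overlap they were 6.18% and 5.75%, and means were higher for 50.7% of all genes and 42.7% of the expressed genes. Of the 23 glucocorticoid-induced genes, 21 of them expressed, 17 means were higher (73.9%) and 6 lower, the median was 0.10, and 2 were higher at an unadjusted p under 0.05 (8.70%). These were the metallothioneins Mt1 and Mt2, metal-binding proteins, at 0.18 ± 0.07 and 0.18 ± 0.08 (SE), both without overlap between genotypes, as was Nfkbia, an inhibitor of NF-kappaB (0.18; 3 of 23, 13.0%). Mt1 read 11.44, 11.54 and 11.58 in Ahr-KO and 11.33, 11.37 and 11.30 in wild type. The clock gene Per1 differed by 0.22 ± 0.10 (SE). The mean of the 23 genes was 8.40, 8.47 and 8.54 in Ahr-KO and 8.41, 8.42 and 8.37 in wild type, so the genotypes overlapped. Among marker lists, Ahr-KO means were higher for 17 of 23 hippocampal neuron, 17 of 20 endothelial and mural and 14 of 17 choroid plexus genes. They were higher for 3 of 11 neocortex and striatum, 6 of 15 oligodendrocyte, 7 of 15 astrocyte and 7 of 15 microglia genes. For 17 thyroid hormone-induced genes 9 means were higher and 8 lower, with 2 higher (11.8%) and 1 lower (5.88%) at an unadjusted p under 0.05, the same 3 without overlap: Bcl3 (0.38, below the median on all arrays), the postsynaptic calmodulin-binding protein Nrgn (0.21) and Itih3 (-0.23).

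Of 16 measured retinoic acid-induced genes 11 means were higher (68.8%) and 5 lower, and 1 was higher at an unadjusted p under 0.05 (6.25%), without overlap. That gene was Stra6, the receptor that takes up retinol from its binding protein, which read 8.19, 7.72 and 7.97 in Ahr-KO and 7.63, 7.57 and 7.57 in wild type, a difference of 0.37 ± 0.12 (SE; 0.11 to 0.64) with an adjusted p of 0.770. Its highest value fell on Ahr-KO array 1, one of the arrays with choroid plexus transcripts. Wild-type array 2, the other such array, read 7.57, and Ahr-KO array 3, with a low choroid mean (5.72), read 7.97. The part of choroid plexus in the Stra6 difference was not tested. The next genes, Meis1 and Zfp703, differed by -0.24 and 0.24, with Meis1 below the median on all arrays.

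Of 14 LXR targets 6 means were higher and 8 lower. Abcg8, a sterol exporter below the median on all arrays, differed by 0.19 ± 0.08 (SE). It was the 1 gene under an unadjusted p of 0.05 (7.14%) and without overlap. Apoe and Apoc1 differed by -0.15 and -0.19, and Apoc1 too lay below the median on all arrays. Of 21 PPAR targets 16 means were higher (76.2%) and 5 lower, the median was 0.08, and 2 were higher at an unadjusted p under 0.05 (9.52%): the mitochondrial thioesterase Acot2 (0.27 ± 0.09, SE) and the adipocyte hormone Adipoq (0.21 ± 0.08, SE), the latter below the median on all arrays. Without overlap 4 of 21 were higher (19.0%, against 6.18% of all genes), these and Angptl4 (0.17) and Vnn1 (0.19). The fatty acid carrier Fabp3 differed by 0.21. Of 15 estrogen and progesterone targets 9 means were higher and 6 lower with 0 at an unadjusted p under 0.05, and Igfbp4, Cited1 and Igf1 differed by 0.23, 0.15 and -0.19, of which Igfbp4 and Cited1 did not overlap (2 of 15, 13.3%). The median over all genes was 0.00. No test here compares a list with other lists of genes, and the genes of a list are not independent. The lists overlap each other and contain some of the receptors, so they are not separate evidence.

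For Nr3c2, Rora, Rorb and Nr1i3 the direction was the same in every alternative that could be run, but the side of an unadjusted p of 0.05 was not. Much of that sameness was fixed in advance. The variance models, the filters and the replicate block leave the difference unchanged. For Rora, Rorb and Nr1i3, picked for no overlap, array weights and left-out arrays cannot turn the sign. Only scaling and the covariates could have turned it for these genes. Other members given on every array turned sign in some alternatives: Nr3c1 kept its direction in 16 of 19, Pgr in 18 of 19, Rxrg in 16 of 17 and Nr2f2 in 14 of 19. Nr3c2 differed by 0.17 to 0.39 over 19 alternatives, with an unadjusted p under 0.05 in 11 of them and adjusted p-values from 0.591 to 0.972. It was 0.39 (unadjusted p of 0.00476) without wild-type array 2, and the unadjusted p was above 0.05 without Ahr-KO array 1 (0.0934), Ahr-KO array 3 (0.0535), wild-type array 1 (0.0970) or wild-type array 3 (0.0887). Averaging its probe sets gave 0.17 (unadjusted p of 0.0889), and a replicate block gave an unadjusted p of 0.0545. Rora ran from -0.27 to -0.11, with an unadjusted p under 0.05 in 7 of 19, and its difference was -0.26 (unadjusted p of 0.0145) without wild-type array 2. Rorb ran from 0.08 without wild-type array 2 to 0.23, and 2 of 19 alternatives, those with the neuron mean or the neocortex and striatum mean as a covariate, were under 0.05. Nr1i3 ran from -0.26 to -0.10, the latter without Ahr-KO array 2, and 2 of 17 were under 0.05, with the neocortex and striatum mean as a covariate (unadjusted p of 0.0215) and with repeated quantile normalization (unadjusted p of 0.0381).

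**Figure D5:**
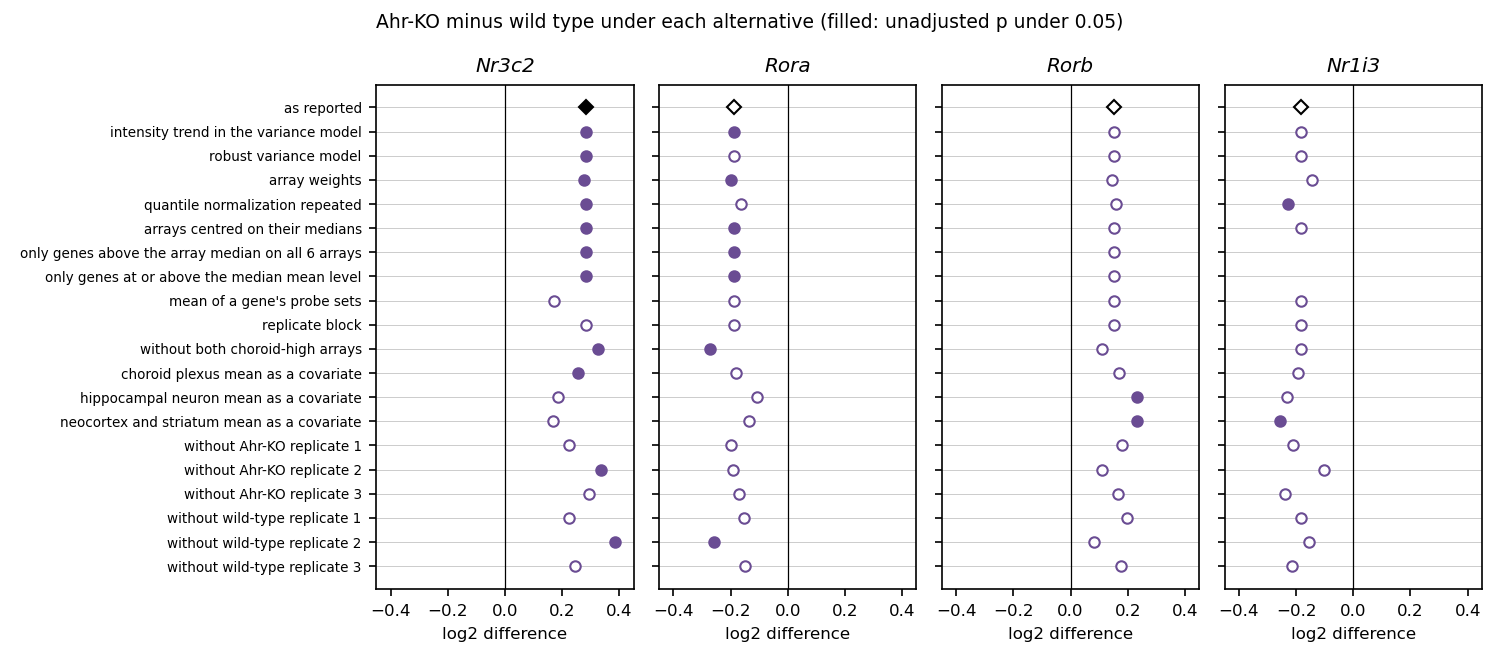
Difference between genotypes (Ahr-KO minus wild type, log2, horizontal axis) of Nr3c2, Rora, Rorb and Nr1i3 under each alternative setting (rows), with the reported value as a black diamond and filled marks for an unadjusted p under 0.05 in limma. Every mark keeps the side of 0 of the reported value, which many of the settings could not have changed. Filled and open marks mix in all 4 panels (11 of 19 filled for Nr3c2, 7 of 19 for Rora, 2 of 19 for Rorb and 2 of 17 for Nr1i3).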

How the data were processed

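Per the labels' protocols, the RNA was Trizol-extracted total RNA from 6 dissected hippocampi, prepared for the array by the GeneChip WT PLUS chemistry. The authors deposited log2 values for 41345 probe sets. RMA and Affymetrix Expression Console are named per the submitters' processing notes; RMA gives all arrays one distribution, which removes an overall shift in RNA content and tends to shrink differences. Of these rows 23521 had 1 symbol and were used, 1814 had several and 16010 had none. For 23328 of the rows used, the Entrez ID was found in RefSeq GRCm38.p6 and its symbol there was taken, whether or not it differed.

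Differences were tested on all 6 arrays by lmFit and eBayes of limma 3.58.1 (R 4.3.3), two-sided, without covariates or a filter on dim genes. Benjamini-Hochberg adjustment ran over 22180 genes at a threshold of 0.05. The script was tested on simulated data. Exact permutation of 3 against 3 arrays reaches no p under 0.1 and was left out. With so few arrays, their number limits the precision.

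The members, the pathway and marker lists and the tests were chosen with earlier results of these data known. Values on every array are given for members with an unadjusted p under 0.05, without overlap, among the 3 brightest or nearest the array median. Up to 3 non-members with the lowest unadjusted p are named from each pathway list. Nr3c1, Rara, Nr2f2, Mt1 and Stra6 were given on every array, and Ncoa3, Sin3a, Hdac3, Kdm1a, Dio1, Nfkbia, Angptl4 and Vnn1 named, after their values were seen. Marker lists not described with a receptor were meninges and fibroblasts (array scores 7.03 to 7.25) and astrocytes (9.31 to 9.40). Alternatives covered the variance model, array weights, scaling, filters, averaged probe sets, a replicate block, cell type covariates and left-out arrays.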

Additional observations from a re-analysis of the deposited data

How the results depend on the processing

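Of 701 member differences recomputed under the alternatives, 699 moved by less than 1 pooled SD and 0 passed an adjusted p of 0.05 (the lowest was 0.591). The exceptions, both without Ahr-KO array 1 and wild-type array 2, were Pgr at -0.22 and Nr2f6 at 0.16. That count says little about stability. The variance models, the filters and the replicate block leave a difference unchanged by design. The members' median pooled SD (0.109) also exceeded their median absolute difference (0.062), so a sign could turn within 1 pooled SD. The direction was the same in every alternative for 19 of 39 members, 8 of them expressed. The median difference of expressed members ran from -0.02 to 0.04 beside 0.02 as reported. Of all genes, 2 passed an adjusted p of 0.05 with an intensity trend and 1 when only expressed genes were tested, beside 0. At an unadjusted p under 0.05 there were 769 genes with expressed genes only and 785 with genes at or above the median level, beside 1371; fewer genes were tested in both. Receptors at an unadjusted p under 0.05 numbered 1 as reported, 2 with the intensity trend, repeated quantile normalization, centred arrays, either filter, the choroid plexus covariate or the neocortex and striatum covariate, 3 with array weights, 4 without both choroid-high arrays (Nr3c2, Rara, Rora and Hnf4g), 0 with averaged probe sets and 0 with a replicate block, and 0 to 3 leaving out 1 array. The neuron and the neocortex and striatum covariates were added after seeing the data. Receptors without overlap numbered 3 as reported, with centred arrays and with averaged probe sets. They numbered 2 with repeated quantile normalization and with either filter, where dim members such as Nr1i3 drop out. Without both choroid-high arrays they numbered 13, and leaving out 1 array 5 to 10, where fewer arrays make separation easier. Same-numbered arrays had correlated deviations of -0.153, -0.215 and 0.052, and the labels name separate mice, so the numbers do not pair them; the replicate block gave 1122 genes at an unadjusted p under 0.05. Repeated quantile normalization turned the sign of Ppard and Esrrb and centring of none. Dim members without detection calls may lie at background.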
